A study of Mus musculus with 31 samples.

Results

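Receptor tyrosine kinases (RTKs) are cell surface receptors for growth factors, and the accessible chromatin at 10 of their genes was measured in NIH-3T3 cells, an established line of mouse embryonic fibroblasts. The genes are Pdgfra, Pdgfrb, Egfr, Met, Igf1r, Axl, Kit, Kdr, Ddr2 and Erbb2, chosen by name from the 21938 protein-coding genes of chromosomes 1 to 19, X and Y. Peaks of ATAC-seq, in which the transposase Tn5 cuts and tags open chromatin, were taken for each gene when they lay within 1 kb of a transcription start site (TSS) of any of its transcripts, elsewhere in the gene body, or within 50 kb on either side of it. These rules gave 107 of the 63456 peaks of the list, and none of the 107 was counted for more than 1 of the genes.

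The study compared transcription factors (TFs) for their binding to mitotic chromosomes and their effect on chromatin accessibility. The cells described here are the parental line, labelled WT, with no TF transgene, grown in serum, and they are represented by 1 library. The labels name no treatment for them, while the methods describe doxycycline for NIH-3T3 cells before ATAC-seq, so whether the parental cells received it is not certain. The other 30 samples, in which TFs were overexpressed or which carried the inducible activator alone, were not analysed here. With 1 library there is no replicate and no group to compare it with, so every value below is a description of this library, without a test.

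RTKs span the membrane, bind a ligand outside the cell and, as dimers, phosphorylate each other on tyrosines, to which adaptor proteins of the RAS and PI3 kinase pathways then bind. Fibroblasts are known for their growth response to platelet-derived growth factor (PDGF), epidermal growth factor (EGF) and insulin-like growth factor, whereas Kit is best known from blood, mast and germ cells and Kdr from endothelium. An open promoter is common at active genes, but an ATAC-seq peak measures DNA accessibility and not transcription.

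For each peak, 3 values are given. The fold enrichment is the number of DNA fragments over the summit divided by the number expected locally, each with 1 added. The −log10 q is the adjusted significance of the peak caller, which compares the summit with local background in the same library and not with other samples. The number of fragments at the summit was solved from the deposited values, and its exact 95% Poisson interval covers counting error only. The background expected number was 2.81 fragments, and the peaks of the list held 10 fragments or more at the summit, so weaker accessibility was not detectable at this depth. Of 10 fibroblast marker genes 9 had a promoter peak, all but Postn, against 2 of 7 epithelial, 1 of 6 blood and 2 of 5 endothelial markers. The share over all protein-coding genes was 53.7%. The highest promoter peaks of the fibroblast markers had fold enrichments from 3.41 at Thy1 to 10.5 at Fn1. The markers of other cell types with a promoter peak were Krt14 and Krt8 (epithelial), with fold enrichments of 7.07 and 3.25, Spi1 (blood), with 3.22, and Cdh5 and Pecam1 (endothelial), with 12.8 and 8.40. At Thy1 and Cdh5 the promoter peak lay near another annotated start. Their 5′-most TSSs were 3158 and 2394 bp from the nearest peak, respectively.

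Of the 10 receptor genes, 8 had a peak within 1 kb of a TSS, and Kit and Kdr had none. Over all protein-coding genes this share was 53.7%. A peak covered a TSS base itself at 7 of the 10, against 48.7% of all coding genes, since the promoter peak of Igf1r ended 248 bp before its start. Body peaks were found at 8 genes, all but Pdgfra and Kit, where 62.5% of coding genes in the same range of lengths (25247 to 280842 bp) had one. Flank peaks were found at 9 genes, all but Kit, against 81.1% of all coding genes. Members were too few for these shares to be read as a departure from the background.

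**Figure D1:**
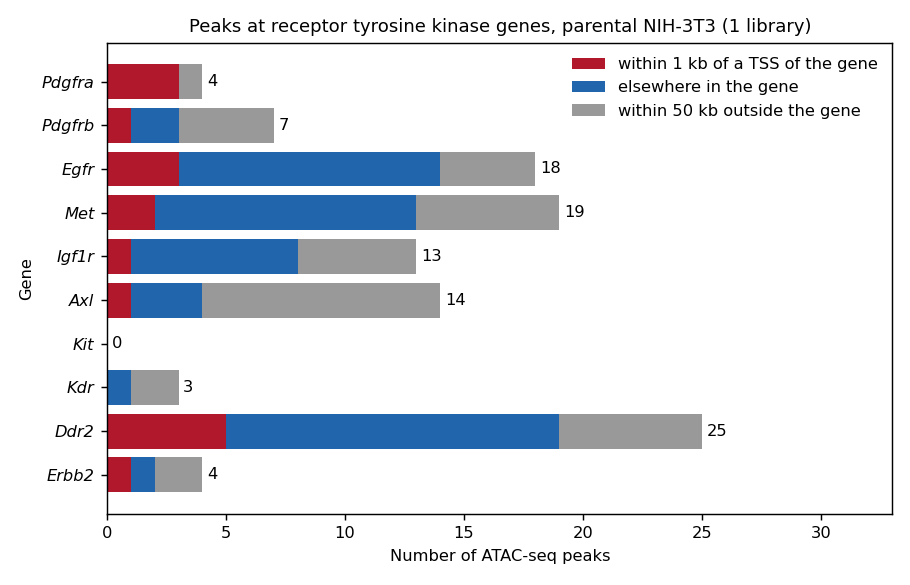
Number of ATAC-seq peaks (horizontal axis) at each of the 10 genes (vertical axis) in 1 library of parental NIH-3T3 cells, with colours for peaks within 1 kb of a TSS of the gene, elsewhere in the gene and within 50 kb outside it. Ddr2 held the most, with 25, and Kit held 0.

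The 107 peaks comprised 17 promoter, 50 body and 40 flank peaks. As the plot of peak counts shows, the genes fell far apart, with 25 peaks at Ddr2, 19 at Met, 18 at Egfr, 14 at Axl, 13 at Igf1r and 7 at Pdgfrb. Pdgfra and Erbb2 had 4 each, Kdr 3 and Kit 0. At least as many peaks as at Ddr2 were counted for 0.638% of coding genes of any length. Per 100 kb of gene and flanks, Ddr2 stood at the 97.7 percentile of coding genes in the range of lengths of the receptors, and Axl at the 97.9 percentile. The genes also differ in length, from 25247 bp for Erbb2 to 280842 bp for Igf1r. Per 100 kb of gene body, Ddr2 had 10.1 peaks, Met 9.98, Axl 9.54 and Egfr 6.63, compared with a median of 1.81 over the 8128 coding genes in this range of lengths. Pdgfrb had 5.01, Erbb2 3.96, Igf1r 2.49 and Kdr 2.19 per 100 kb, so that Igf1r, with 7 body peaks, was placed at the 58.9 percentile of these genes and Ddr2 at the 97.3 percentile.

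Pdgfra, Kit and Kdr are neighbours on chromosome 5 (mm10), in this order, and are the only protein-coding genes in the 926 kb from 50 kb before Pdgfra to 50 kb after Kdr. They encode the receptors for PDGF, for stem cell factor and for vascular endothelial growth factor (VEGF), respectively. The stretch held 9 peaks, or 0.972 per 100 kb, where the sequenced part of chromosome 5 held 2.77 per 100 kb. The peaks lay at both ends: 4 from before Pdgfra into its intron 1 and 5 from between Kit and Kdr to beyond Kdr.

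**Figure D2:**
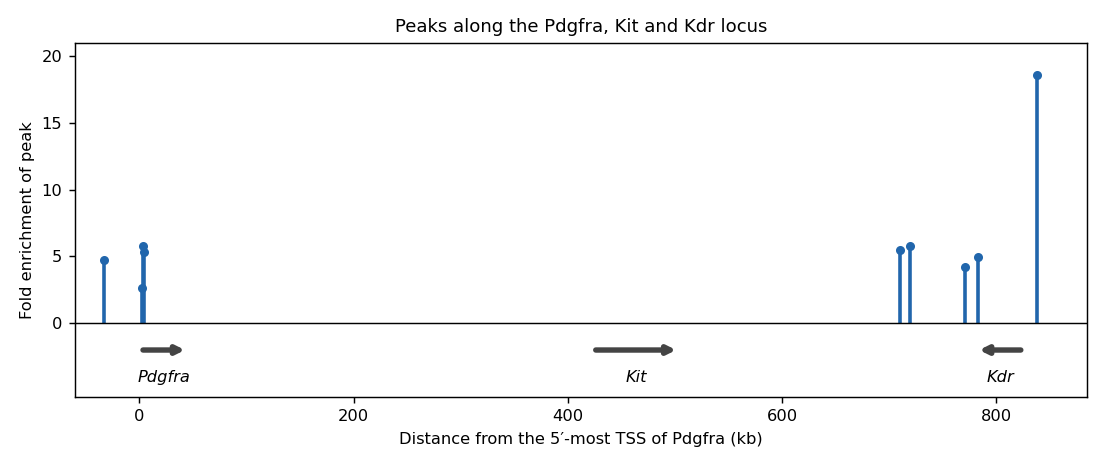
Fold enrichment of each peak (vertical axis) against its distance from the 5′-most TSS of Pdgfra in kb (horizontal axis), with arrows for the 3 genes in their direction of transcription. No peak stands between the intron 1 peaks of Pdgfra and a peak 710 kb from its start, and the peak before the Kdr start, with a fold enrichment of 18.6, is the highest of the stretch.

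At Pdgfra (chr5:75152292-75198215, plus strand) the 5′-most TSS was 2590 bp from the nearest peak. The 3 peaks counted as promoter peaks lay in intron 1, next to the annotated starts of shorter transcripts. The first, at chr5:75154882-75155102, had a fold enrichment of 2.63 with 21 fragments (95% interval 13.0 to 32.1). The second, at chr5:75155476-75155961, had a fold enrichment of 5.81 with 47 fragments (34.5 to 62.5). The third, at chr5:75156229-75156525, had a fold enrichment of 5.35 with 42 fragments (30.3 to 56.8). The interval of the first lay below that of the second and overlapped that of the third. A non-coding gene, Gm42803, also starts within 1 kb of all 3, so that the TSS behind these peaks cannot be told apart. The 1 flank peak of Pdgfra, at chr5:75118998-75119304, lay 33182 bp before the gene with a fold enrichment of 4.73 and 17 fragments (9.90 to 27.2), and the rest of the gene body held none.

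At Kit (chr5:75574916-75656722, plus strand) no peak was listed in the gene or within 50 kb, which was the case for 15.8% of all coding genes and for 7.89% of those in the same range of lengths. Its TSS was 287803 bp from the nearest peak, and 6.71% of coding genes had a TSS at least as far from one. The TSS of Kit lay in a stretch without peaks of 706 kb, from chr5:75156526 to chr5:75862718, and 10.6% of the 5′-most TSSs of coding genes lay in one at least as long. Kit has a promoter rich in CpG, by the usual criteria of a CpG ratio (observed over expected) of at least 0.6 and a GC content of at least 50% within 500 bp of the TSS, with values of 0.675 and 65.0%. Among the 9738 coding genes with such a promoter, 82.9% had a promoter peak, and 85 genes, or 0.873%, were as far from a peak as Kit or farther. Since the list gives called peaks and no coverage between them, signal at Kit below the calling threshold was not measured here.

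At Kdr (chr5:75932827-75978458, minus strand), which encodes a receptor for VEGF, the promoter had no peak either, with a CpG ratio of 0.665 and a GC content of 60.6%. The nearest peak was 11745 bp from its TSS, closer than that of Kit, and 11.6% of coding genes with a CpG-rich promoter were at least as far from one. The peak in question, at chr5:75990203-75990825, had 18.6-fold enrichment at a −log10 q of 118 and 131 fragments (110 to 155). Its summit was 11990 bp upstream of the Kdr start, and it was the highest of all 107 peaks in fold enrichment. The other peaks of Kdr were weak. The body peak, at chr5:75935438-75935571, had a fold enrichment of 4.99 with 18 fragments (10.7 to 28.4), and the flank peak beyond the 3′ end, at chr5:75922643-75922880, one of 4.20 with 15 fragments (8.40 to 24.7). Between Kit and Kdr, 2 further peaks, with fold enrichments of 5.52 and 5.78, were more than 50 kb from either gene.

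The sequences of the 3 starts are shown with that of Met, which had an open promoter, because Kit and Kdr had CpG-rich starts without a peak. They run from 250 bp before to 50 bp after the RefSeq start (GRCm38.p6), 5′ to 3′ on the strand of the gene, and capitals mark GGGCGG, the core of the binding sequence of the SP family, and TGACTCA, that of AP-1, on either strand. The Pdgfra promoter lies at chr5:75152001-75152300 (plus strand), that of Kit at chr5:75574737-75575036 (plus), that of Kdr at chr5:75978406-75978705 (minus) and that of Met at chr6:17463707-17464006 (plus).
Pdgfra promoter: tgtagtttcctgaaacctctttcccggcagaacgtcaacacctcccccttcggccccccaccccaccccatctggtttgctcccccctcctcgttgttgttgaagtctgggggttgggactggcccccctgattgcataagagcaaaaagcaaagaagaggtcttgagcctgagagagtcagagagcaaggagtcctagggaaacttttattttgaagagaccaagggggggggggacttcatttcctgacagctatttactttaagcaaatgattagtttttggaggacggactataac
Kit promoter: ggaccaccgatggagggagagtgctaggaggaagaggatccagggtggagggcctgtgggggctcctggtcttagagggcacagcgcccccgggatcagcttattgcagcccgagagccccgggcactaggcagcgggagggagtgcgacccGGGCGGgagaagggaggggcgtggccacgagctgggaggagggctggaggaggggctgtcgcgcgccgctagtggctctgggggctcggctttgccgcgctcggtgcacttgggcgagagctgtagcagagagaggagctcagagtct
Kdr promoter: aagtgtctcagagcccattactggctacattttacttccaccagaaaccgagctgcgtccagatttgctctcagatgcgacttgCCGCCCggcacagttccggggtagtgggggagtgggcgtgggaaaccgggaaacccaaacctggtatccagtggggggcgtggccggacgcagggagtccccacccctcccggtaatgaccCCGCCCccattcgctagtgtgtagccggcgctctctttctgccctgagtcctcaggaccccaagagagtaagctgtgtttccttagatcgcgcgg
Met promoter: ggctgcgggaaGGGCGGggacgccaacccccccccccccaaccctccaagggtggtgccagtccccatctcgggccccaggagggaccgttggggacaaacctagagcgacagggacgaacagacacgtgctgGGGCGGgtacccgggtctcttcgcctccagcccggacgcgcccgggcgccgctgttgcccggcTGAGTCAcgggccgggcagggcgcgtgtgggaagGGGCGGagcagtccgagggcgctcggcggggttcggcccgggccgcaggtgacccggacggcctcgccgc

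The Pdgfra promoter held 5 CG dinucleotides in its 300 bases, that of Kit 20, that of Kdr 19 and that of Met 34. GGGCGG was found at 1 place at Kit, 2 at Kdr and 3 at Met, and not at Pdgfra. It was present in 35.7% of the 32851 promoters of the RefSeq table, and among the promoters of the receptors also in those of Axl, Egfr and Igf1r. TGACTCA was in 5.20% of all promoters and, of the 9 receptor genes matched in the table, in that of Met. Such matches describe these letters in this window and not binding.

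The 17 promoter peaks had a median fold enrichment of 5.81, from 2.63 to 13.8, with 13 to 96 fragments at the summit. All 16264 peaks of the list within 1 kb of a TSS had a median of 8.03. Taking the highest promoter peak of each gene, the median was 7.69 for the 8 receptors and 9.86 for all coding genes with a promoter peak. Of the receptors, 4 had more than 1 promoter peak, namely Pdgfra, Egfr, Met and Ddr2, as had 13% of coding genes. These 4 have 9, 5, 7 and 6 annotated TSSs, respectively, and the 13% was not matched for the number of TSSs.

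**Figure D3:**
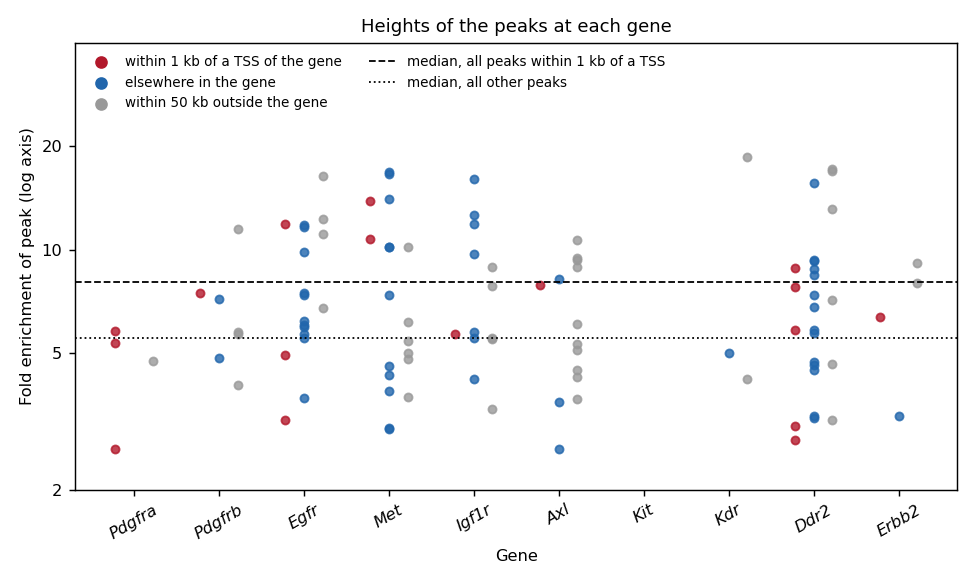
Fold enrichment of each peak (vertical log axis) by gene (horizontal axis), coloured by its place relative to the gene, with the medians of all peaks within 1 kb of a TSS (dashed, 8.03) and of all other peaks (dotted, 5.54). Only the promoter peaks of Met, Egfr and Ddr2 reach above the dashed line, whereas Egfr, Met, Igf1r, Kdr and Ddr2 have body or flank peaks of 16.0 or more, rounded. The highest peaks of Egfr and Ddr2 lie within 1 kb of starts of neighbouring genes, Fbxo48 and Hsd17b7.

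Met, the receptor for hepatocyte growth factor (chr6:17463800-17573980, plus strand), had 2 promoter peaks. The peak over its 5′-most start, at chr6:17463405-17464425, had 10.7-fold enrichment at a −log10 q of 54.7 and 81 fragments. A higher one, at chr6:17490640-17491265, with 13.8-fold enrichment at a −log10 q of 75 and 96 fragments (77.8 to 117), lay at the start of the transcript Met-201. Both peaks were above the median fold enrichment of 8.03 over all peaks near a TSS.

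Egfr, the receptor for EGF (chr11:16752203-16918158, plus strand), had a peak over its start, at chr11:16751838-16752497, with 11.9-fold enrichment at a −log10 q of 40.7 and 54 fragments (40.6 to 70.5). A small peak just downstream, at chr11:16752620-16752840, had a fold enrichment of 3.18 with 14 fragments. Another, at chr11:16904774-16904911, with a fold enrichment of 4.94 and 21 fragments, was counted because the non-coding transcript Egfr-204 starts 274 bp from it, deep in the gene. Erbb2, the receptor of the same subfamily that has no known ligand of its own (chr11:98412470-98437716, plus strand), had 1 promoter peak, at chr11:98412332-98412894, with 6.34-fold enrichment at a −log10 q of 20.6 and 44 fragments (32.0 to 59.1).

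Ddr2, a collagen receptor (chr1:169972307-170110762, minus strand), had 5 promoter peaks within 1 kb of its starts. The highest, at chr1:170111670-170112335, had 8.84-fold enrichment at a −log10 q of 44.9 and 76 fragments (59.9 to 95.1). It covered no start and lay 908 bp upstream of the 5′-most one, so it was not counted with a distance of 500 bp. Closer to the 5′-most start, the peaks at chr1:170110445-170111252 and chr1:170109901-170110274 had fold enrichments of 5.81 and 2.80, with 51 and 24 fragments. The first of them covered this start. At an internal start, the peaks at chr1:170087500-170088218 and chr1:170088356-170088464 had fold enrichments of 7.76 and 3.06, with 34 and 13 fragments.

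Axl, the receptor for Gas6 (chr7:25757273-25788705, minus strand), had 1 promoter peak, at chr7:25788431-25788886, with 7.89-fold enrichment at a −log10 q of 33.1 and 60 fragments (45.8 to 77.2). Igf1r, the receptor for insulin-like growth factors (chr7:67952827-68233668, plus strand), had a wide one, at chr7:67950916-67952579, with 5.67-fold enrichment at a −log10 q of 22 and 53 fragments (39.7 to 69.3). Its promoter had the highest CpG ratio of the 10, at 0.959, while that of Axl had the lowest, at 0.321. Of the 6 receptors with a CpG-rich promoter, 4 had a promoter peak, namely Egfr, Met, Igf1r and Erbb2, where 82.9% of all coding genes with such a promoter had one.

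Pdgfrb, the other PDGF receptor, had a peak over its start, with 7.49-fold enrichment at a −log10 q of 26.4 and 49 fragments (36.3 to 64.8). Unlike at Pdgfra, this peak covered the 5′-most TSS. By fragments at the highest promoter peak, the order was Met with 96, Ddr2 with 76, Axl with 60, Egfr with 54, Igf1r with 53, Pdgfrb with 49, Pdgfra with 47 and Erbb2 with 44. The place of Ddr2 rests on its peak 908 bp upstream of the 5′-most start, whereas the peak covering that start had 51 fragments. The counting intervals of all neighbours in this order overlapped, and that of Met overlapped only with that of Ddr2. By fold enrichment Egfr came second, as its local expected number was 3.62 fragments against 7.71 at Ddr2 and 8.53 at Igf1r.

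**Figure D4:**
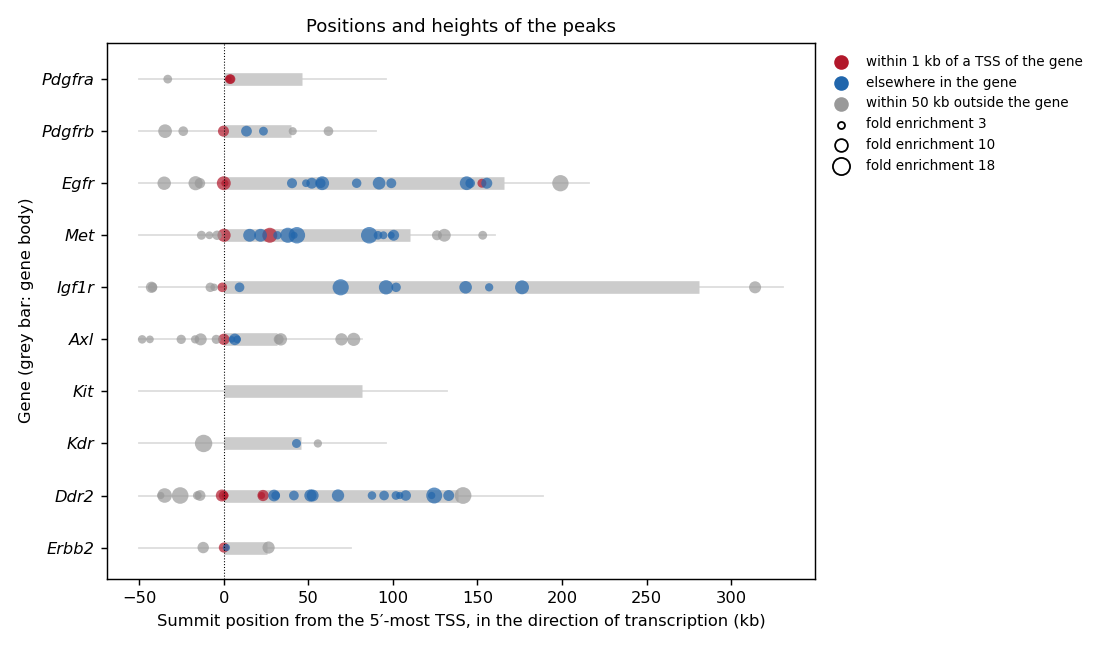
Position of each peak summit in kb from the 5′-most TSS along the direction of transcription (horizontal axis) for the 10 genes (vertical axis), with the gene body as a grey bar and the area of each circle in proportion to the fold enrichment. Egfr and Met hold 11 body peaks each and Ddr2 14, whereas Pdgfra and Kit hold 0.

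The 50 body peaks had a median fold enrichment of 6.11 and 11 to 124 fragments, and the 40 flank peaks also had a median of 6.11, with 13 to 169 fragments. Of the body peaks 48 had their summit in an intron, 13 of them in intron 1, and 2 in an exon. As the plot of positions shows, those of Egfr, Met and Ddr2 were spread over much of each gene, with wide gaps in Egfr and Met. Of the 81 receptor peaks more than 1 kb from every annotated TSS, hereafter distal peaks, 19 (23.5%) had a fold enrichment of at least 10, compared with 15.2% of the 47192 distal peaks of the list, and their medians were 6.04 and 5.54. With peaks near a TSS included, the shares were 22.4% at the receptors and 20.1% in the list. Several of the high distal peaks lay at the same gene, such as Met, and the difference was not tested.

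The 11 body peaks of Met had fold enrichments from 3.01 to 16.8. The highest, at chr6:17549526-17550293 in intron 15, had a −log10 q of 106 and 124 fragments. Another, at chr6:17506727-17507278, had a fold enrichment of 16.6 with 107 fragments. Both exceeded the 2 promoter peaks of the gene in fold enrichment. Its 6 flank peaks ranged from 3.73 to 10.1.

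In Igf1r, the highest of the 7 body peaks, at chr7:68021552-68022347 in intron 2, had 16.0-fold enrichment at a −log10 q of 82.0 and 96 fragments, while the promoter peak of the gene had 5.67. The body peaks of Igf1r had a median of 9.72, above that of its 5 flank peaks, at 5.52. The 11 body peaks of Egfr ranged from 3.69 to 11.8 and 8 of them lay in intron 1. The highest peak at Egfr, with 16.3-fold enrichment at a −log10 q of 141 and 169 fragments, lay beyond its 3′ end at chr11:16950859-16951863, at the start of Fbxo48, so that the gene it belongs to cannot be told apart. Upstream of Egfr, the peaks at chr11:16735063-16735847 and chr11:16716518-16717140 had fold enrichments of 12.3 and 11.1 and were distal.

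At Ddr2, the 14 body peaks ranged from 3.23 to 15.6. The highest distal peak, at chr1:170136387-170136909, lay upstream of the gene, with 16.9-fold enrichment at a −log10 q of 69.3 and 77 fragments. A flank peak beyond its 3′ end, at chr1:169968883-169969703, with 17.2 and 153 fragments, was at the start of the neighbouring gene Hsd17b7. Axl had 10 flank peaks in the 50 kb on either side, up to a fold enrichment of 10.7 at chr7:25711621-25712198, in the gene Ccdc97. Of these, 2 lay at starts of other coding genes, Ccdc97 and Hnrnpul1. In the gene itself, which spans 31433 bp, Axl had 3 body peaks, with fold enrichments of 8.23, 3.61 and 2.63. At Pdgfrb the highest peak was a distal flank peak 34764 bp upstream, with a fold enrichment of 11.5 and 76 fragments. Another flank peak, with 5.68, lay in Csf1r, the adjacent RTK gene, 956 bp from the nearest of its starts.

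At Erbb2, both flank peaks were promoter peaks of neighbours, that at chr11:98438557-98439135 of Mien1, with a fold enrichment of 9.13 and 60 fragments, and that at chr11:98400111-98400728 of Pgap3, with 8.0 and 47 fragments. Erbb2 itself had 1 body peak, with 3.27 and 23 fragments, and so no strong distal peak. Over all 10 genes, 7 of the 40 flank peaks lay within 1 kb of a TSS of another coding gene.

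To describe the sequence of the distal peaks, windows reaching 50 bp to either side of the summits were searched on both strands. TGACTCA (reverse complement TGAGTCA), the sequence bound by AP-1 factors such as Fos and Jun, was in 26 of the 81 windows (32.1%, exact binomial 95% interval 22.2 to 43.4). It was in 26.4% of all distal peaks, within this interval. Such an interval treats the windows as independent, although many lie at the same gene, and was not used as a test. By gene it was in 9 of 19 windows at Ddr2, 5 of 17 at Met, 3 of 13 at Egfr, 2 of 12 at Igf1r, 2 of 10 at Axl and 2 of 5 at Pdgfrb. All 3 windows of Kdr held it, and the 1 window each of Pdgfra and Erbb2 did not. At Ddr2, 8 of the 9 were in the gene body.

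Windows of 5 such peaks are shown, the highest distal peak with this sequence of each of 5 receptors, on the plus strand of mm10 with the match in capitals. They lie at chr5:75990398-75990498 for Kdr, chr1:170136546-170136646 for Ddr2, chr6:17549729-17549829 for Met, chr7:68048689-68048789 for Igf1r and chr11:16735418-16735518 for Egfr. The Kdr window is the summit of the peak 11990 bp before the Kdr start, which had no peak itself.
Kdr distal peak: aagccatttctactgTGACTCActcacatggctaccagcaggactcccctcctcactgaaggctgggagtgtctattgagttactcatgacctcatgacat
Ddr2 distal peak: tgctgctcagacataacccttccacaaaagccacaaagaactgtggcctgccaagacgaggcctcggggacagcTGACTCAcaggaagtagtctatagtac
Met distal peak: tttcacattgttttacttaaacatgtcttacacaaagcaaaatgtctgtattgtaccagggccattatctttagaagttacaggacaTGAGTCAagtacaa
Igf1r distal peak: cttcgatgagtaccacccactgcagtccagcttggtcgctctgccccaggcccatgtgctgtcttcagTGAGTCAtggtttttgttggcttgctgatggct
Egfr distal peak: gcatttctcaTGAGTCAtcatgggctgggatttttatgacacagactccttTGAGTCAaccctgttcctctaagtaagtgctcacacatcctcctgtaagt

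The window of Egfr held the sequence at 2 places. The Igf1r window belongs to its peak at chr7:68048521-68049018, which had a fold enrichment of 12.6. For the other sequences too, the share in all distal peaks lay within the interval of the share at the receptors. GGAATG, the TEAD sequence, was in 9 of 81 windows (11.1%, against 9.52% of all distal peaks), TGTGGTT, the RUNX sequence, in 3 (3.70% against 5.05%) and GGGCGG in 4 (4.94% against 3.52%). TGACGTCA, CCGGAAG and CACGTG, the sequences of CREB, ETS and E-box factors, were in 0 of 81, which allows a share of up to 4.45%, and in 0.206%, 0.729% and 1.72% of all distal peaks.

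Other genes of the pathway were counted in the same way at the promoter. Of 45 other RTK genes, 23 (51.1%) had a promoter peak, close to the share of all coding genes. The highest fold enrichments among them were 16.6 at Styk1, 11.5 at Ephb3 and 11.4 at Fgfr1, a receptor for fibroblast growth factors. The peak of Fgfr1 lay near another annotated start, its 5′-most TSS being 2172 bp from the nearest peak. Set by subfamily, a promoter peak was present at 3 of 3 genes of the TAM family (Axl, Tyro3, Mertk), both DDR genes, 3 of 4 ERBB genes (not Erbb4) and 3 of 5 genes of the PDGF receptor family (not Kit and Flt3). It was present at 1 of 3 VEGF receptor genes, namely Flt1, with a fold enrichment of 6.78, and at 7 of 14 Eph receptor genes. It was also present at 2 of 3 insulin receptor genes, 1 of 2 of the MET family, 2 of 4 FGF receptor genes and 2 of 3 Trk genes. In the VEGF receptor family Flt4, like Kdr, had no promoter peak.

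**Figure D5:**
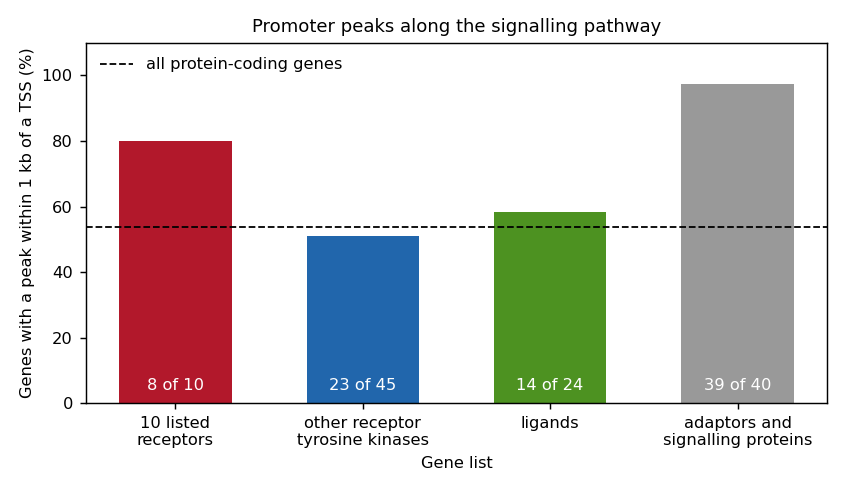
Percentage of genes with a peak within 1 kb of a TSS (vertical axis) in 4 gene lists (horizontal axis), with the count in each bar and the share of all protein-coding genes (53.7%) as a dashed line. The adaptors and signalling proteins stand at 39 of 40, and the other RTKs at 23 of 45.

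Of 24 genes listed as ligands of the receptors or of their subfamilies, 14 (58.3%) had a promoter peak, against 53.7% of all coding genes. The highest were at Egf, with a fold enrichment of 18.3 near an internal start, its 5′-most TSS being 10258 bp from the nearest peak, at Kitl, the ligand of Kit, with 11.7, and at Vegfd, with 11.3. Areg, Epgn, Gas6, Hgf, Igf1, Igf2, Pdgfb, Pdgfd, Tgfa and Vegfc had none. Hgf is the ligand of Met and Gas6 that of Axl. The list also held the collagen genes Col1a1, Col1a2 and Col3a1, as ligands of Ddr2. All of these had a promoter peak, and they were also counted among the fibroblast markers above.

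Downstream of the receptors, 39 of 40 genes for adaptors, RAS pathway kinases and feedback inhibitors (97.5%) had a promoter peak, all but Plcg2, a phospholipase best known from blood cells. High fold enrichments were found at Nck1, an adaptor, with 15.1, and at Pik3ca, a PI3 kinase subunit, with 14.7. Of these 40 genes, 36 had a CpG-rich promoter, compared with 6 of the 10 receptors and 10 of the 24 ligands, and the part of promoter sequence in this difference was not tested.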

How the data were processed

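The peak list of 1 ATAC-seq library of the parental line was used. Paired-end reads were mapped by the authors to mm10 with STAR, keeping unique alignments. They removed duplicates with Picard and reads outside chromosomes 1 to 19, X and Y, and called peaks with MACS2 in paired-end mode. The submitters' processing notes name STAR 2.5.3a and MACS2 2.1.1.20160309. No shift of reads for Tn5 is described. The authors deposited a fold enrichment (ratio), −log10 p and −log10 q values, a score and a summit for each peak. Blacklisted regions were not masked here.

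Peaks were placed by GENCODE M21, with promoter peaks assigned first, and sequences were read from GRCm38. Numbers of fragments were solved by bisection from the fold enrichment and the −log10 p, to within 0.02 of the deposited values for 99.997% of peaks, and the solver was tested on simulated data. Named were all 10 receptors with every promoter peak and their highest body or flank peaks, the 3 highest genes of each list and genes without a promoter peak where these were 10 or fewer, except 1 gene that is not reported here. Further body and flank peaks, the subfamilies, and the Met promoter sequence were added after values were seen. The receptors and lists were chosen with earlier results of these data known. Nothing was tested between samples. Alternatives for thresholds, distances, joining of peaks and windows were computed. The software was SciPy 1.17.1, NumPy 2.4.6, pandas 2.3.3 and matplotlib 3.10.9 in Python 3.11.15.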

Additional observations from a re-analysis of the deposited data

How the results depend on the processing

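Of 48 values recomputed under another setting, 38 kept within their limits and 10 moved. A minimum fold enrichment of 5 left 33 of 50 body peaks, 2 of 4 peaks at Pdgfra and 1 of 3 at Kdr. Asking a promoter peak to cover the TSS left 9 of 17. Joining peaks less than 500 bp apart gave 2 peaks at Pdgfra. Flanks of 10 kb gave 11 flank peaks and of 100 kb gave 83, compared with 40, and with 100 kb Pdgfra had 8 peaks and Kdr 5. In windows of 51 bp, TGACTCA was in 17.3% of the distal receptor peaks and in 13.5% of all distal peaks. In windows reaching 100 bp to either side these shares were 42% and 36.5%. The 8 receptors with a promoter peak were the same with q limits of 0.01 and 1e-05, the same minimum fold enrichment, distances of 500 bp and 2 kb, and with protein-coding transcripts alone. Kit had 0 peaks under every setting run. No paired analysis was possible because the parental line has 1 library.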
